A study of Homo sapiens with 16 samples.

Results

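The cytoplasmic ribosome of human cells carries about as many proteins as there are genes described here: those of the large subunit, named RPL, and those of the small subunit, named RPS. The genes were taken by their symbols, as every RPL or RPS symbol with a number and at most one closing letter A, L or X, plus RPLP0, RPLP1, RPLP2, RPSA and RPL36AL. Pseudogenes and mitochondrial ribosomal proteins were thereby left out. The rule found 82 genes in each of 2 expression tables, among 17318 genes in the first and 18168 in the second, and 0 symbols were repeated. Of these, 81 passed the filter on low values in each table (48 of the large and 33 of the small subunit). The one left out, RPL3L, is the muscle paralog of RPL3, and its level was 0.154 to 0.495 CPM (read counts scaled to one common total per library) in the first table and 0.0279 to 0.407 CPM in the second.

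RNA was sequenced from orthotopic brain tumours in nude mice. The tumours arose from implanted U87 cells that express luciferase; U87 is an established cell line from a human glioblastoma. All mice were given exosomes of the source abbreviated MSC, and the labelled genotype was WT throughout. The Myc1 group (n = 3) had exosomes carrying human anti-Myc siRNA#1 and the Scr1 group (n = 4) scramble siRNA#1; Myc2 (n = 5) and Scr2 (n = 4) had siRNA#2 and scramble #2. In the first experiment, retro-orbital dosing of 1e9 exosomes in 100 µl began on day 28 after implantation and was repeated every other day; the schedule of the second is not given in the sources used here. Each of the 16 tumours was taken from its own mouse at euthanasia, so that the time of collection was set by the animal's condition. The design asks whether siRNA against MYC, delivered by exosomes, alters the tumours' RNA. U87 is a single line, nude mice lack mature T cells, and the tumours are bulk tissue in which host cells remain.

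Ribosomal proteins are among the most abundantly translated products of a growing cell, and each ribosome takes up nearly all of them in equal number. Their genes are activated by MYC together with those for ribosomal RNA and assembly factors. Their mRNAs begin with a C followed by an unbroken run of pyrimidines, the terminal oligopyrimidine (TOP) motif, through which mTORC1 and the RNA-binding protein LARP1 control their translation and stability. In tumours of the brain, as elsewhere, a high output of ribosomes goes with growth.

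To show the start sites of these genes, the window from 40 bases before to 12 bases after the RefSeq transcript start (GRCh38.p14) is printed for 6 genes that the results return to. A run of a C and at least 4 further pyrimidines is in capitals where it begins within 5 bases of the start. The windows lie at chr1:153990722-153990773 on the plus strand (RPS27), chr13:27251518-27251569 on the plus strand (RPL21), chr3:39406680-39406731 on the plus strand (RPSA), chr19:5690255-5690306 on the plus strand (RPL36), chr12:56041878-56041929 on the plus strand (RPS26) and chr4:39458911-39458962 on the minus strand (RPL9). The last 12 bases of each are the first bases of the annotated transcript. The order is the same in all: upstream sequence, then the start.
RPS27: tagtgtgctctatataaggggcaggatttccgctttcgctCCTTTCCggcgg
RPL21: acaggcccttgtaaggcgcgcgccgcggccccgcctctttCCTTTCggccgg
RPSA: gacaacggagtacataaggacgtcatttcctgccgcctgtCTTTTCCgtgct
RPL36: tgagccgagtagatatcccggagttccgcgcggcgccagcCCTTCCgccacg
RPS26: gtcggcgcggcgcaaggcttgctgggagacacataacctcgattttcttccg
RPL9: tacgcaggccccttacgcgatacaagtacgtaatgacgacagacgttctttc

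The first 4 windows hold the run directly at the start, whereas those of RPS26 and RPL9 hold no such run within 5 bases of it. Both hold one that begins farther into the transcript, so the limit of 5 bases decides their class. Promoter windows of 250 bases before to 50 after the start were found for 64 of the 82 genes, or 78.0%, which is too few for a statement on all of them. Among these 64, a run of the above kind beginning within 5 bases of the start was present in 51 (79.7%), compared with 21.1% of 27303 RefSeq promoters. On either strand of the windows, the E-box CACGTG, the sequence MYC binds, was present in 3 of the 64 (4.69%, and 7.44% of all promoters). The ETS-type sequence CCGGAAGT was present in 10 (15.6%, and 4.44% of all), ATGGCGGC, a core of the YY1 site, in 5 (7.81% and 3.21%), and TATAAA in 5 (7.81% and 11.95%). These are matches of letters in a window and no measure of binding.

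Library sizes were not given, and the deposited values are log2 CPM forced to one common distribution in each table, so that a shift common to most genes is lost from them. In such values the number of distinct levels below 1 CPM follows the depth. It was 15 to 24 in the first experiment except in Scr1 replicate 3, with 4, and 15 to 28 in the second except in Scr2 replicate 4, with 10. All 8 of the U87 markers looked for (VIM, CD44 and the like) were measured, with a mean of 9.41 to 10.34 log2 CPM per library. The rows are human genes and the host is a mouse, so sums over marker lists of other cell types do not measure how much host tissue is present. Markers of neurons summed to 34.0 to 53.8 CPM and of endothelium to 1.81 to 12.9 CPM. Those of microglia and macrophages summed to 163 to 403 CPM, most of it CD68. Markers of oligodendrocytes summed to 105 to 196 CPM, nearly all of it CNP, while MBP was at 0.219 to 1.27 CPM. Those of pericytes summed to 130 to 390 CPM, most of it PDGFRB. Those of astrocytes summed to 174 to 913 CPM, mostly GJA1 and SLC1A3, while GFAP was at 1.26 to 3.11 CPM. The 6 astrocyte markers tested, which glioma cells can also express, had a median log2 difference of 0.57 with siRNA 1 and 0.30 with siRNA 2. Their mean was 3.00 log2 CPM in Scr1 replicate 4 and 3.16 and 3.42 in Scr2 replicates 1 and 4. Other tumours were also low. Myc2 replicate 3 was lowest of the second experiment at 3.12. Relative to the mean of the first table, Scr1 replicate 1 was at -0.61 and Scr1 replicate 4 at -0.72. The part of these markers in the results was not tested. Erythroid and lymphocyte markers were not analysed here. The handling of reads from the mouse host, whose ribosomal protein mRNAs are close in sequence to the human ones, is not given in the sources used here, and its part in the results was not tested.

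MYC, the target of the siRNAs, was measured first as a check of the labels. In the first experiment it was at 38.1, 26.5 and 14.3 CPM in Myc1 and at 21.2, 30.2, 50.7 and 108 CPM in Scr1. The groups overlapped, and the log2 difference of -0.83 was within their spread (exact two-sided permutation p = 0.314). In the second experiment MYC was at 55.3, 57.5, 47.0, 72.1 and 42.3 CPM in the libraries labelled Myc2 and at 40.2, 35.3, 47.1 and 25.9 CPM in those labelled Scr2. The log2 difference of 0.57 (exact two-sided permutation p = 0.0397) goes against the labels, and directions in the second experiment are directions between groups as labelled.

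The ribosomal protein genes took up a share of all CPM that overlapped between the groups of each experiment. The share was 6.36%, 6.44% and 7.23% in Myc1, and 6.92%, 5.96%, 7.03% and 4.31% in Scr1. In the second experiment it was 4.68%, 4.53%, 5.08%, 3.76% and 5.43% in Myc2 and 7.69%, 4.36%, 4.86% and 9.14% in Scr2. One Scr1 tumour, replicate 4, lay below all others of its table, and 2 Scr2 tumours, replicates 1 and 4, lay above all others of theirs. The remaining Scr2 tumours were inside the range of Myc2. In bulk tissue, fewer cells that make these mRNAs and less of the mRNAs per cell cannot be told apart.

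**Figure D1:**
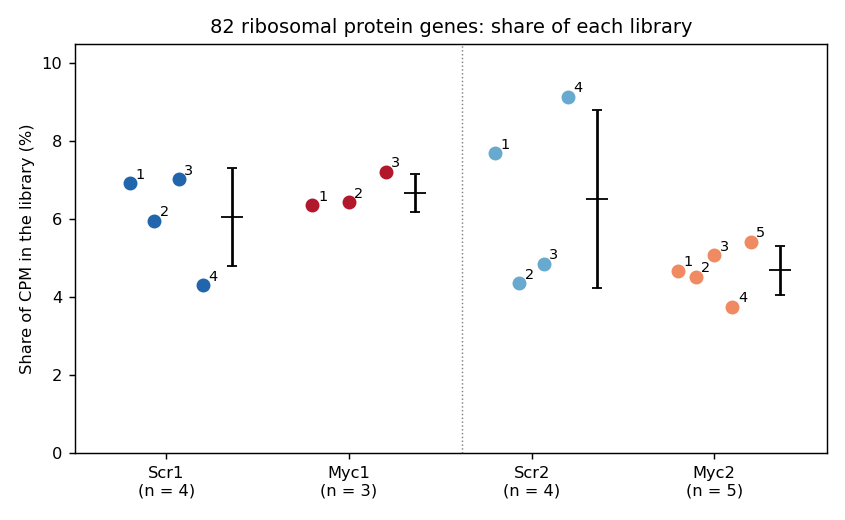
Share of all CPM in a library (%, vertical axis) taken by the 82 ribosomal protein genes, by group, with 1 numbered point per tumour and the mean ± SD in black. Scr1 replicate 4 is lowest in its table at 4.31%, and Scr2 replicates 4 and 1 are highest in theirs at 9.14% and 7.69%; the tables were normalized separately and levels are not compared between them.

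Libraries that stood apart did so in nearly every gene of the group. Scr1 replicate 4 had the lowest level of the 7 tumours in 74 of the 81 tested genes, where 21.7% of all genes tested had their lowest level there. Scr2 replicate 4 had the highest level of the 9 tumours in 73 genes and Scr2 replicate 1 in the other 8, against 27.1% and 10.3% of all genes. Scr2 replicate 4 was among the top 2 tumours in 81 of 81 genes and Scr2 replicate 1 in 77. At the other end, Myc2 replicate 4 was lowest in 57, against 9.02% of all genes. The heat map of the tested genes shows these libraries as whole columns.

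**Figure D2:**
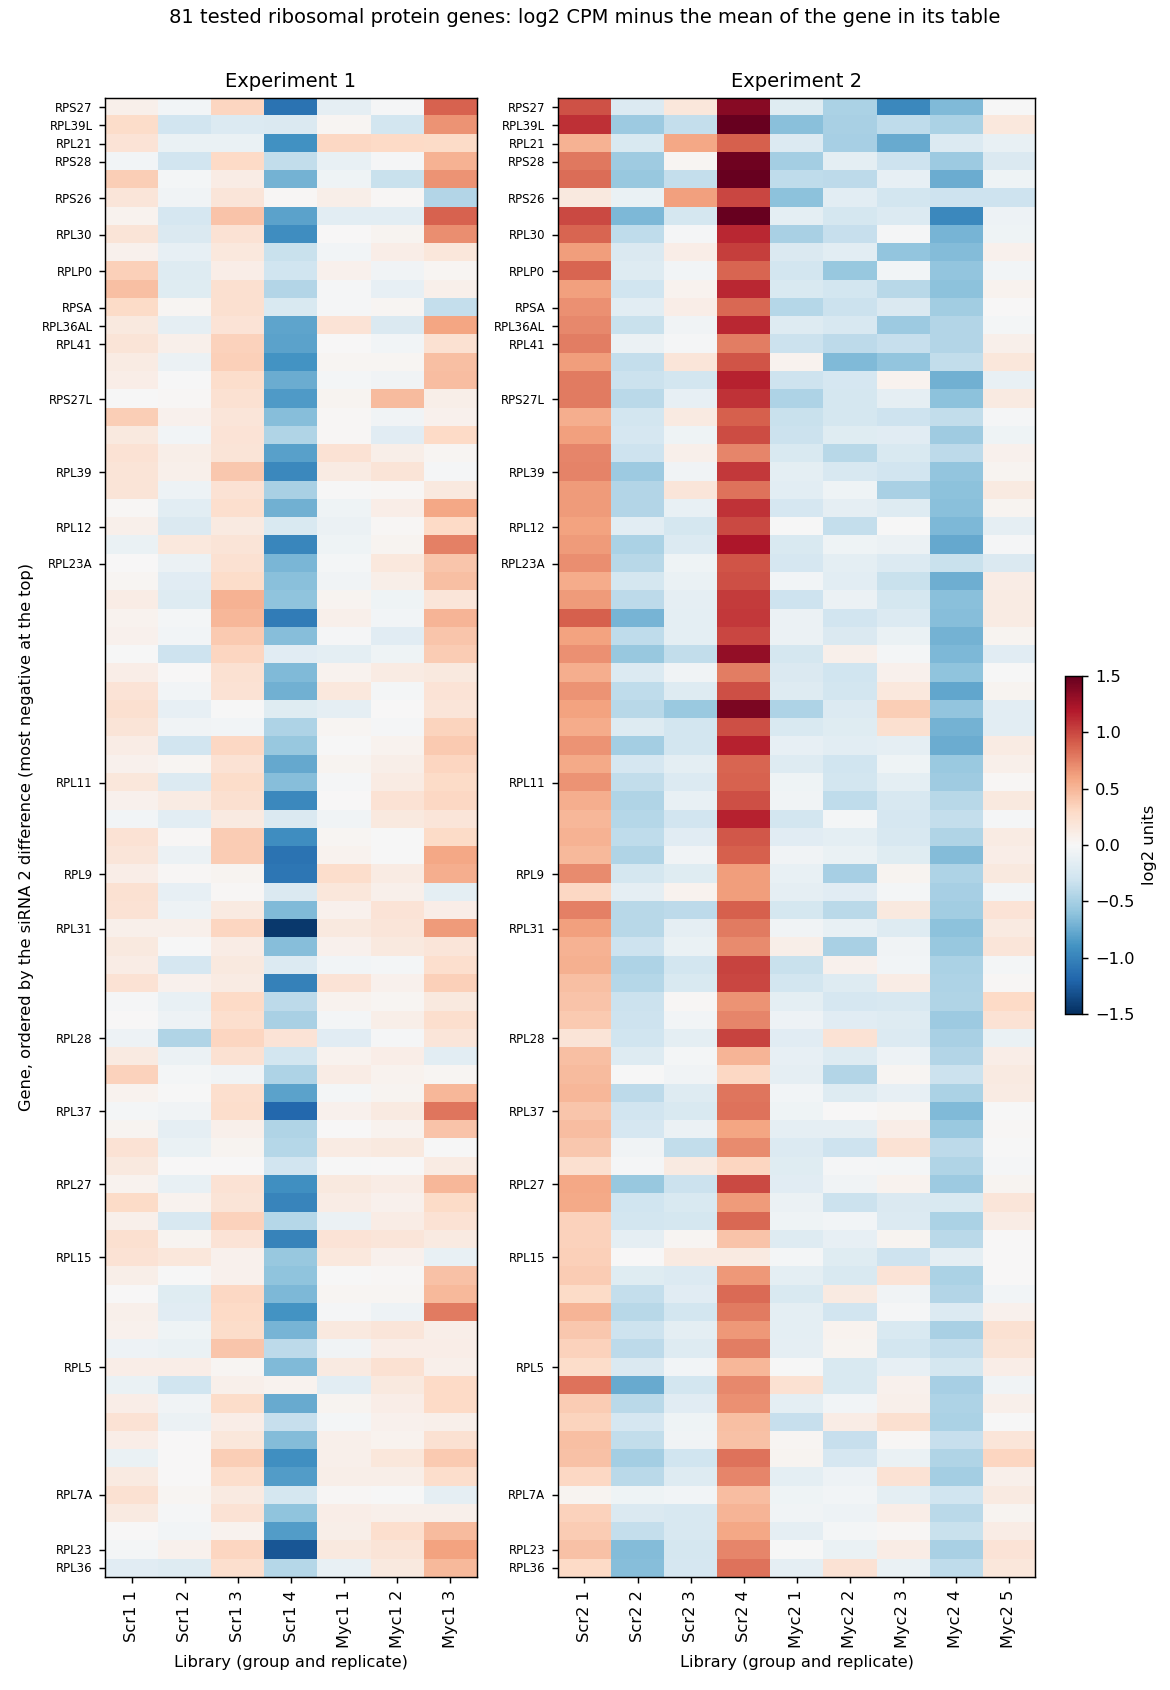
Log2 CPM of each of the 81 tested genes minus its mean over the table (colour, log2 units; red above and blue below the mean, saturated at the ends of the scale), by library, ordered by the siRNA 2 difference; genes described in the text are labelled. The column of Scr1 replicate 4 is blue and those of Scr2 replicates 1 and 4 are red through nearly the whole list, while RPS26 in experiment 1 departs from the pattern.

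After the group means were subtracted, the genes moved together across tumours. As a description over libraries that share their normalization, the mean correlation between pairs of the 81 genes was 0.735 over the 7 tumours of the first experiment and 0.861 over the 9 of the second. The median correlation of a gene with the mean of all 81 was 0.934 and 0.957. RPS26, a protein of the mRNA exit channel, and RPL28 followed the others least in the first experiment, with correlations of 0.00066 and 0.0232, and RPL15 and RPS26 least in the second, with 0.44 and 0.53. The median SD within groups was 0.34 and 0.43 log2 units for these genes and 0.37 and 0.38 for all genes tested. Once each library's mean over the 81 genes was subtracted, it was 0.18 and 0.15.

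Levels differed widely between the genes. Per kilobase of coding sequence, the shortest member, RPL41, was highest in both tables, with a median over tumours of 44814 CPM per kb in the first and 37025 in the second. RPL39, which lines the peptide exit tunnel, came next with 4408 and 3516 CPM per kb. It was followed by the stalk protein RPLP1 in the first table (3861) and by RPS24 in the second (3214), by the order of mean log2 levels. Reads cover the whole transcript, so this divisor raises genes with short coding parts. RPL41 has 78 coding bases in a transcript of 469, and RPL39 has 156 in one of 401. The order by transcript length can differ and is not given here. At the low end stood RPS26 with 84.0 and 70.5 CPM per kb, RPL21 with 98.1 and 61.4, and RPL39L, the testis-enriched paralog of RPL39, with 212 and 142. Many ribosomal protein genes have processed pseudogenes of nearly the same sequence, to which reads can be assigned in part. How the authors treated reads with several matches is not given in the sources used here, so levels of single genes are uncertain. The order of genes was similar in both tables, with a correlation of mean log2 levels of 0.992 across 80 genes that have a coding length, which are not independent replicates.

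Comparison of Myc1 with Scr1 showed slightly higher values for most of the genes, none of them beyond the spread between mice. The median log2 difference was 0.22, and 75 of 81 genes were above 0. Over all 13933 genes tested the median was -0.0028 and 49.5% were above 0. Limma called 0 ribosomal protein genes at an adjusted p under 0.05, as it called 0% of all genes. At an unadjusted p under 0.05 it had 0 of the 81, and 3.48% of all genes (1.96% higher and 1.52% lower). The members' adjusted p values ran from 0.996 to 1.00, and their standard errors from 0.18 to 0.37 log2 units.

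The largest differences of this comparison belonged to proteins of the large subunit. RPL37, a zinc-binding protein of that subunit, had 566, 595 and 949.8 CPM in Myc1 and 532, 526, 655 and 239.5 CPM in Scr1, a log2 difference of 0.58 ± 0.32 (SE). RPL31, at the rim of the exit tunnel, had 335, 344 and 469 CPM in Myc1 and 319, 319.9, 379 and 111 CPM in Scr1, a difference of 0.56 ± 0.37. RPL23 differed by 0.55 ± 0.33, and RPL27 by 0.44 ± 0.26. In RPL37 and RPL31 the lowest value by far was that of Scr1 replicate 4, and the groups overlapped.

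The groups did not overlap in 3 genes (3.70% of the 81, where 1.94% of all genes were higher and 2.27% lower without overlap), RPL21 and RPL9 among them. RPL21 was at 51.3, 50.9 and 50.3 CPM in Myc1 and at 47.4, 38.5, 38.6 and 22.0 CPM in Scr1, a log2 difference of 0.53 ± 0.27. RPL9 was at 937, 855 and 1138 CPM against 838, 792, 805 and 370.0 CPM, a difference of 0.54 ± 0.27. Both had a limma adjusted p of 0.996.

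At the other end, RPSA, the laminin receptor homologue of the small subunit, differed by -0.20 ± 0.20 and RPS26 by -0.19 ± 0.24. RPL7A differed by -0.073 ± 0.19. Of RPSA, Myc1 held 1768, 1825 and 1391 CPM and Scr1 2184, 1825, 2107 and 1523 CPM, and the groups overlapped. Without Scr1 replicate 4, the median over the 81 genes was 0.0433, with 54 above 0. At an unadjusted p under 0.05 were 0 of the 81, and 279 of all 13752 genes. RPL21 then differed by 0.30 and RPL9 by 0.26. That tumour was lowest in most of these same genes, so leaving it out lowers the differences by construction.

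Comparison of Myc2 with Scr2 showed lower values in the libraries labelled Myc2 for every one of the 81 genes, and again none passed the adjusted threshold. The median log2 difference was -0.40, where the 14208 genes tested had a median of -0.018 and 51.8% below 0. Limma called 0 of the 81 at an adjusted p under 0.05 and 0% of all genes. At an unadjusted p under 0.05 it had 15 genes of the 81 (18.5%), all lower, where 6.36% of all genes were lower and 7% higher at that p. The smallest adjusted p of the 81 was 0.370. Values ran from -1.03 (RPS27) to -0.10 (RPL36), with standard errors from 0.15 to 0.41.

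**Figure D3:**
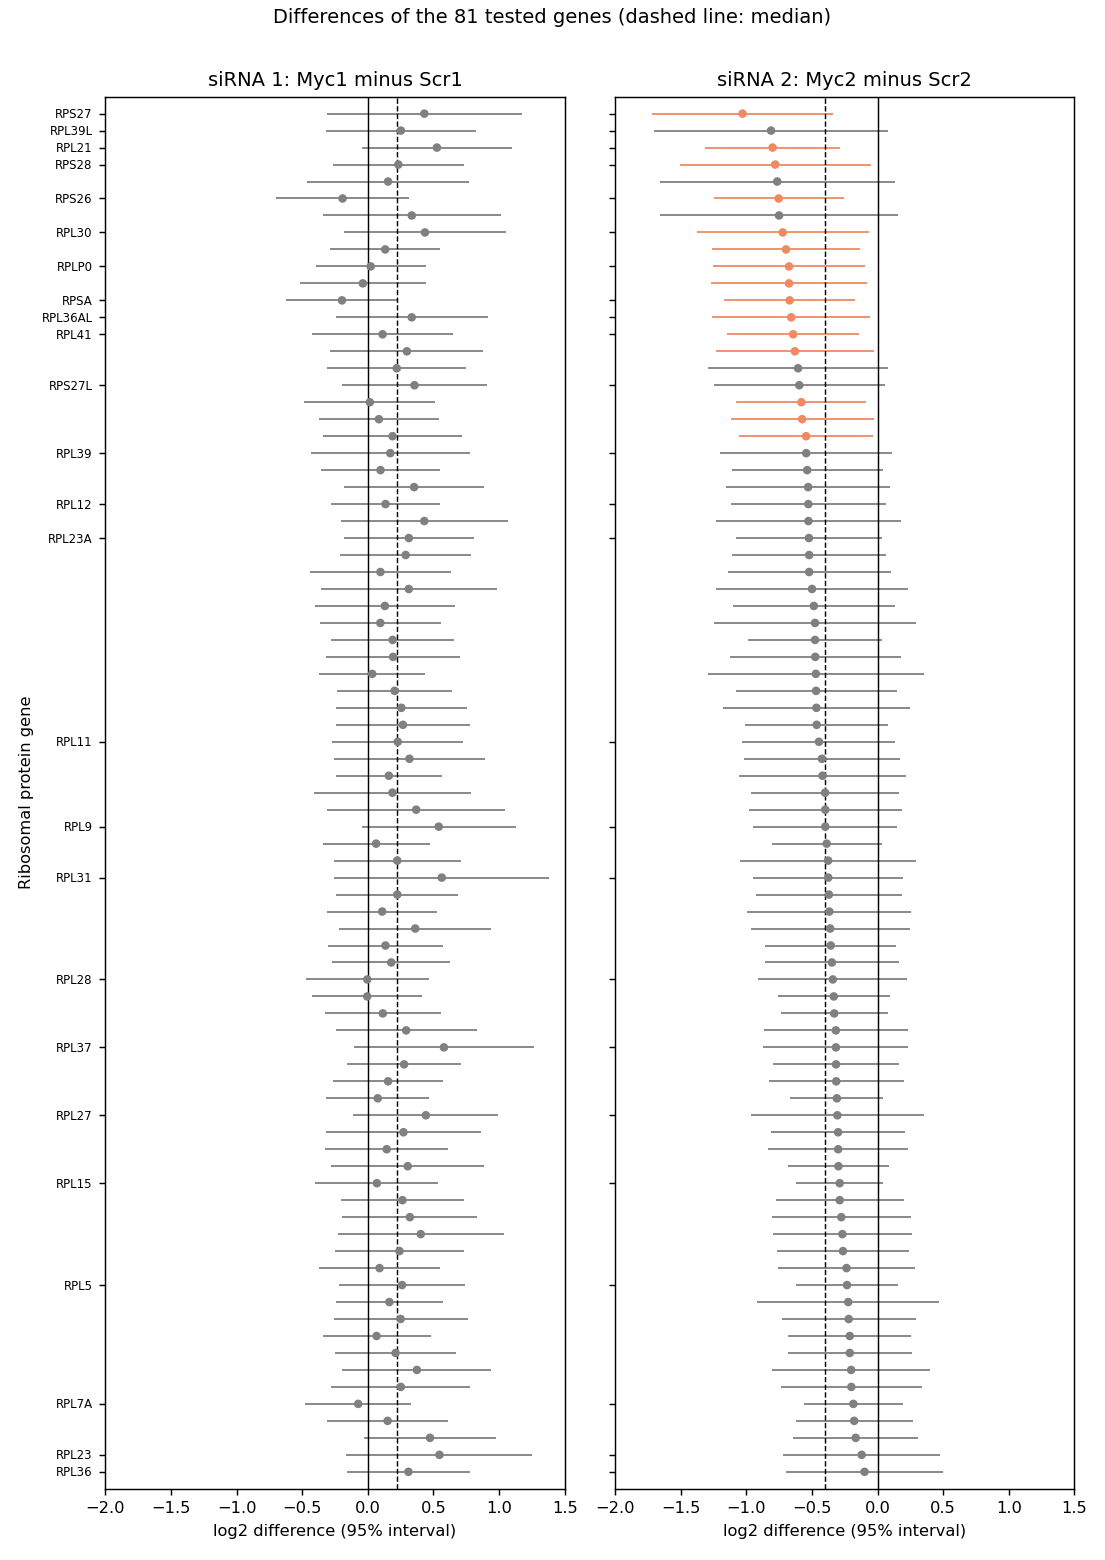
Log2 difference of each of the 81 tested genes (points, with 95% interval) for siRNA 1 (left) and siRNA 2 (right), ordered by the siRNA 2 value, with genes described in the text labelled; coloured genes had an unadjusted limma p under 0.05 and the dashed line marks the median. The medians are 0.22 and -0.40, with 75 genes above 0 on the left and 81 below 0 on the right, and no gene passed the adjusted threshold.

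Among small subunit proteins, RPS27 (ENSG00000177954), a zinc-finger protein at the solvent side, had the largest difference. It was at 105, 85.7, 60.7, 74.95 and 119 CPM in Myc2 and at 231, 103, 134 and 306 CPM in Scr2, a log2 difference of -1.03 ± 0.32 (limma adjusted p = 0.370). Scr2 replicates 1 and 4 were the highest by far, and Scr2 replicate 2 lay within the Myc2 range. RPSA (ENSG00000168028) was at 1149, 1234, 1324, 1075 and 1544 CPM against 2484, 1382, 1654 and 2798 CPM, a difference of -0.67 ± 0.23. In RPSA, too, replicates 1 and 4 of Scr2 were highest and the groups overlapped.

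RPS26 (ENSG00000197728) was the only gene of the 81 whose groups did not overlap (1.23%, where 1.61% of all genes were lower and 1.4% higher without overlap). It stood at 18.0, 24.5, 22.7, 22.1 and 22.1 CPM in Myc2 and at 30.4, 25.7, 42.2 and 55.1 CPM in Scr2, a log2 difference of -0.75 ± 0.23 (limma adjusted p = 0.370). Among the Scr2 tumours, replicate 3 was above replicate 1 here. RPS28, its neighbour on the mRNA path, was at 70.8, 91.2, 81.4, 69.5 and 86.7 CPM against 174, 69.6, 103 and 278 CPM, a difference of -0.78 ± 0.33. Over the 6 genes listed for the mRNA path (RPS2, RPS3, RPS15, RPS23, RPS26 and RPS28), all 6 were below 0 with a median of -0.37. Of them, 2 had an unadjusted p under 0.05, where 6.36% of all genes were lower at that p.

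In the large subunit, RPL21 (ENSG00000122026) was at 29.5, 24.1, 20.2, 29.6 and 31.4 CPM in Myc2 and at 48.9, 29.01, 51.1 and 63.4 CPM in Scr2. The log2 difference was -0.80 ± 0.23 (limma adjusted p = 0.370), and only Scr2 replicate 2 lay in the range of the Myc2 tumours. RPL41, a peptide at the junction of the subunits, was at 2443, 2328, 2404, 2258 and 3225 CPM against 5194, 2888, 3029 and 5194 CPM, a difference of -0.64 ± 0.23. The identical values of Scr2 replicates 1 and 4 come with the common distribution, in which equal ranks have equal levels. RPL36 had the smallest difference, at 537, 684, 549.6, 451 and 664 CPM against 726, 378, 493 and 1033 CPM, or -0.10 ± 0.27, and RPL23 followed with -0.12 ± 0.27. In RPL36 the Scr2 tumours enclosed all 5 Myc2 tumours.

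**Figure D4:**
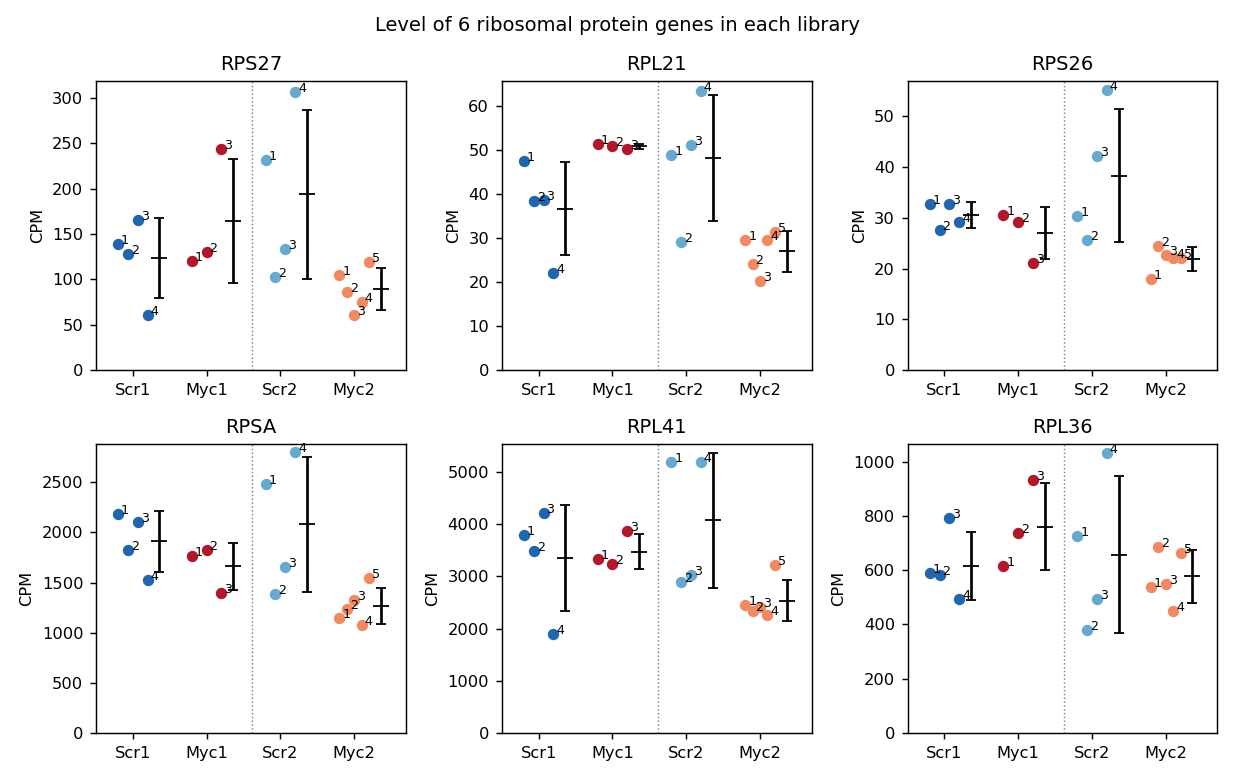
Level (CPM, linear axis from 0) of 6 ribosomal protein genes in every tumour, by group, with replicate numbers and the mean ± SD in black. In RPS27, RPSA and RPL41, Scr2 replicates 1 and 4 are above the other tumours of experiment 2; RPS26 is the gene whose Myc2 and Scr2 tumours do not overlap, and in RPL36 they overlap fully.

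All parts of the ribosome that were listed had medians below 0 in this comparison. All 48 large subunit genes were below 0 with a median of -0.37 and all 33 small subunit genes with a median of -0.47. Of them, 8 and 7 had an unadjusted p under 0.05, where 6.36% of all genes were lower at that p. The stalk that recruits elongation factors (RPLP0, RPLP1, RPLP2 and RPL12) had a median of -0.50, led by RPLP0 with -0.67 ± 0.26 and RPL12 with -0.53 ± 0.27. RPLP0 was at 2213, 1807, 2598, 1779 and 2598 CPM in Myc2 and 4874, 2328, 2598 and 4874 CPM in Scr2. The 9 genes of the exit tunnel and its rim had a median of -0.33, with RPL39 at -0.54 ± 0.30 and RPL23A, the docking site of the signal recognition particle, at -0.52 ± 0.26. RPL5 and RPL11, which bind MDM2 as free proteins of the 5S particle, differed by -0.23 ± 0.18 and -0.45 ± 0.27. The 16 genes listed for Diamond-Blackfan anaemia, an inherited failure of red cell production, had a median of -0.44, with 3 at an unadjusted p under 0.05. In the comparison of Myc1 with Scr1 the same lists had medians of 0.22 (large), 0.22 (small), 0.064 (stalk), 0.28 (exit tunnel), 0.16 (mRNA path), 0.24 (5S particle) and 0.25 (Diamond-Blackfan).

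Most of these differences rested on Scr2 replicates 1 and 4. These tumours were the highest in most of these same genes, so leaving them out raises the differences by construction. It also leaves fewer Scr2 tumours to compare. Without both replicates, the median over the 81 genes was 0.0583, with 28 genes below 0. RPS26 alone of the 81 had an unadjusted p under 0.05, as did 509 of all 14639 genes. RPS26 then differed by -0.60 and RPL21 by -0.53, while RPS27 differed by -0.44, RPSA by -0.27, RPL41 by -0.24 and RPS28 by -0.090. RPL36 and RPL23 turned to 0.40 and 0.40. The large subunit genes had a median of 0.062 and the small subunit genes one of 0.041 without these tumours. Leaving out Scr2 replicate 4 alone gave a median of -0.22 with 5 genes at an unadjusted p under 0.05 (RPL21, RPSA, RPS27, RPS26 and RPL41). Leaving out Scr2 replicate 1 alone gave -0.31 with 4 (RPL21, RPSA, RPS27 and RPS26). Over all genes, 719 of 14389 and 906 of 14386 were at that p in these settings.

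Whether both siRNAs acted alike was asked of the difference between the effects, fitted over all 16 libraries. The experiments share no control samples. The siRNA 2 effect was below the siRNA 1 effect in 81 of 81 genes, with a median difference of -0.63, where all 14891 genes had a median of -0.018 and 51.3% below 0. Limma called 0 of the 81 and 0% of all genes at an adjusted p under 0.05. At an unadjusted p under 0.05, 12 of the 81 (14.8%) were below 0, where 4.16% of all genes were below 0 and 4.58% above 0 at that p. RPL21 differed between the effects by -1.33 ± 0.36, RPS27 by -1.46 ± 0.51 and RPL30 by -1.16 ± 0.45 (smallest limma adjusted p = 0.532). RPL21 was higher in Myc1 without overlap and lower in Myc2 with 1 overlapping tumour. Of the 81 genes, 75 were above 0 with siRNA 1 and below 0 with siRNA 2. Without Scr2 replicates 1 and 4 the median difference was -0.18, with 71 genes below 0 and 1 at an unadjusted p under 0.05. Without Scr1 replicate 4 it was -0.45, with 2 at that p. Over all genes, 220 of 15072 and 705 of 14842 were at that p in these settings.

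Across the 80 genes with a coding length, the correlation between the log2 differences was 0.0795 (Spearman 0.0797). Shorter genes and genes of lower mean level tended to have differences farther from 0 in both comparisons. The correlation with log2 coding length was -0.30 for siRNA 1 and 0.40 for siRNA 2, and with the mean log2 level -0.35 and 0.47. Genes share their libraries, and these values are descriptions with no test.

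Paralogs of ribosomal proteins were also viewed as a list, since some replace their partners in certain tissues. Of those measured, RPL39L, RPL36AL and RPS27L are also among the 81 genes, and RPL26L1, RPL22L1 and RPL7L1 are not. In the comparison of Myc2 with Scr2, 5 of the 6 measured were below 0, with a median of -0.45. Of the 6, 1 had an unadjusted p under 0.05, where 6.36% of all genes were lower at that p. RPL39L was at 18.8, 20.7, 22.2, 20.9 and 32.4 CPM in Myc2 and at 61.9, 19.9, 22.6 and 88.4 CPM in Scr2, a log2 difference of -0.81 ± 0.41. RPL36AL differed by -0.66 ± 0.28 and RPS27L, a p53 target, by -0.60 ± 0.30. RPL26L1 differed by -0.31 ± 0.32, RPL22L1 by -0.029 ± 0.32 and RPL7L1, an assembly factor in spite of its name, by 0.11 ± 0.15. In RPL39L, as in most of the 81 genes, replicates 1 and 4 of Scr2 stood above all others. Without both, its difference was 0.090, and 4 of the 6 paralogs were above 0 with a median of 0.046. In the first experiment the 6 were all above 0 with a median of 0.34, led by RPL22L1 (0.59 ± 0.32) and RPL26L1 (0.49 ± 0.27). Of the 9 paralogs listed, RPL3L was below the filter and 2 were not analysed here.

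Some ribosomal proteins have names outside the rule. FAU, which is made as a fusion with a ubiquitin-like protein, differed by -0.50 ± 0.31 with siRNA 2, and GNB2L1 (RACK1), a scaffold on the small subunit, by -0.28 ± 0.18. Rows annotated as ribosomal protein pseudogenes were below 0 in 17 of 20, with a median of -0.39, and in 12 of 20 with a median of -0.14 in the first experiment.

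Other genes of the pathway did not all go the same way. Of 15 translation factors and related genes with TOP mRNAs, 8 were above 0 and 7 below 0 in the comparison of Myc2 with Scr2, with a median of 0.0093. EEF1B2, a subunit of the nucleotide exchange factor of elongation factor EEF1A1, differed by -0.56 ± 0.24, and PABPC1, the cytoplasmic poly(A)-binding protein, by 0.50 ± 0.17. PABPC1 was at 218, 269, 312, 246 and 228 CPM in Myc2 and at 186, 201, 197 and 137 CPM in Scr2, and the groups did not overlap. TOP transcripts that host small nucleolar RNAs were below 0 in 7 of 9 with a median of -0.29, with SNHG8 at -0.78 ± 0.33 and SNHG16 at -0.38 ± 0.22. Without Scr2 replicates 1 and 4, 7 of the 9 were above 0 and the median was 0.17. In the first experiment these lists had medians of 0.12 and 0.19.

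Of 16 genes of mTORC1 and LARP1 control, 7 were above 0 and 9 below 0 with siRNA 2. At an unadjusted p under 0.05 were 2 of the 16, compared with 13.4% of all genes in either direction. DDIT4 (REDD1), an inhibitor of mTORC1 that is induced by stress, was at 717, 893, 396, 668 and 530.2 CPM in Myc2 and at 376, 249, 191 and 157 CPM in Scr2. Its log2 difference was 1.42 ± 0.29 (limma adjusted p = 0.370), the groups did not overlap, and it was 1.501 without Scr2 replicates 1 and 4. RPTOR, the scaffold of mTORC1, differed by 0.47 ± 0.21. Ribosomal protein chaperones were below 0 in 10 of 10 with a median of -0.20, among them PDCD2L (-0.71 ± 0.30) and TSR2, the RPS26 chaperone (-0.34 ± 0.17). Without Scr2 replicates 1 and 4, 7 of these 10 were below 0 with a median of -0.068.

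Some genes outside the ribosome had the same order of libraries. A list of 11 reference genes for normalization was below 0 in 10 with siRNA 2, with a median of -0.31, led by PSMB4 (-0.55 ± 0.21), while GPI differed by 0.48 ± 0.22; without Scr2 replicates 1 and 4, 7 were below 0 with a median of -0.022. Its mean was 7.50 and 7.63 log2 CPM in Scr2 replicates 1 and 4 and 7.04 to 7.24 in Myc2. With libraries rescaled by these genes, the median of all genes shifted to 0.20 for siRNA 2 and -0.12 for siRNA 1. The ribosomal protein genes then had medians of -0.18 and 0.11, with 71 below 0 and 60 above 0. Relative to the median of all genes they were at -0.38 and 0.23. The rescaling moves all genes of a library alike and cannot change these relative values, so it is no check of them.

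RNAs retained in the nucleus went the opposite way in the second experiment. NEAT1, the scaffold of paraspeckles, was at 1040.2, 876, 1115, 612 and 619 CPM in Myc2 and at 143, 530.2, 360.0 and 28.6 CPM in Scr2, a log2 difference of 2.30 ± 0.68 (limma adjusted p = 0.370). MALAT1 was at 674, 306, 905, 413 and 346 CPM against 143, 487, 291 and 32.4 CPM, a difference of 1.60 ± 0.65. The groups did not overlap in NEAT1 and overlapped in MALAT1. Scr2 replicates 1 and 4, highest in ribosomal protein genes, were lowest in both RNAs, and without them the differences were 0.92 and 0.36. Mitochondrially encoded genes were above 0 in 11 of 13 with a median of 0.27, with MT-ND4L at 0.95 ± 0.42; without Scr2 replicates 1 and 4, 6 were above 0 and the median was -0.023. In the first experiment Scr1 replicate 4, lowest in ribosomal protein genes, was not set apart in the nuclear RNAs. It had 6.55 log2 CPM on average, and the other tumours had 6.53 to 7.56. Whether the makeup or quality of the RNA in these libraries accounts for the order of the ribosomal protein genes was not tested. The RNA integrity number, a score of RNA quality, is known here only as a minimum of 7.2 for every library. Scr2 replicate 4 also had the fewest distinct levels below 1 CPM of the second experiment, with 10, and the part of depth was not tested.

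**Figure D5:**
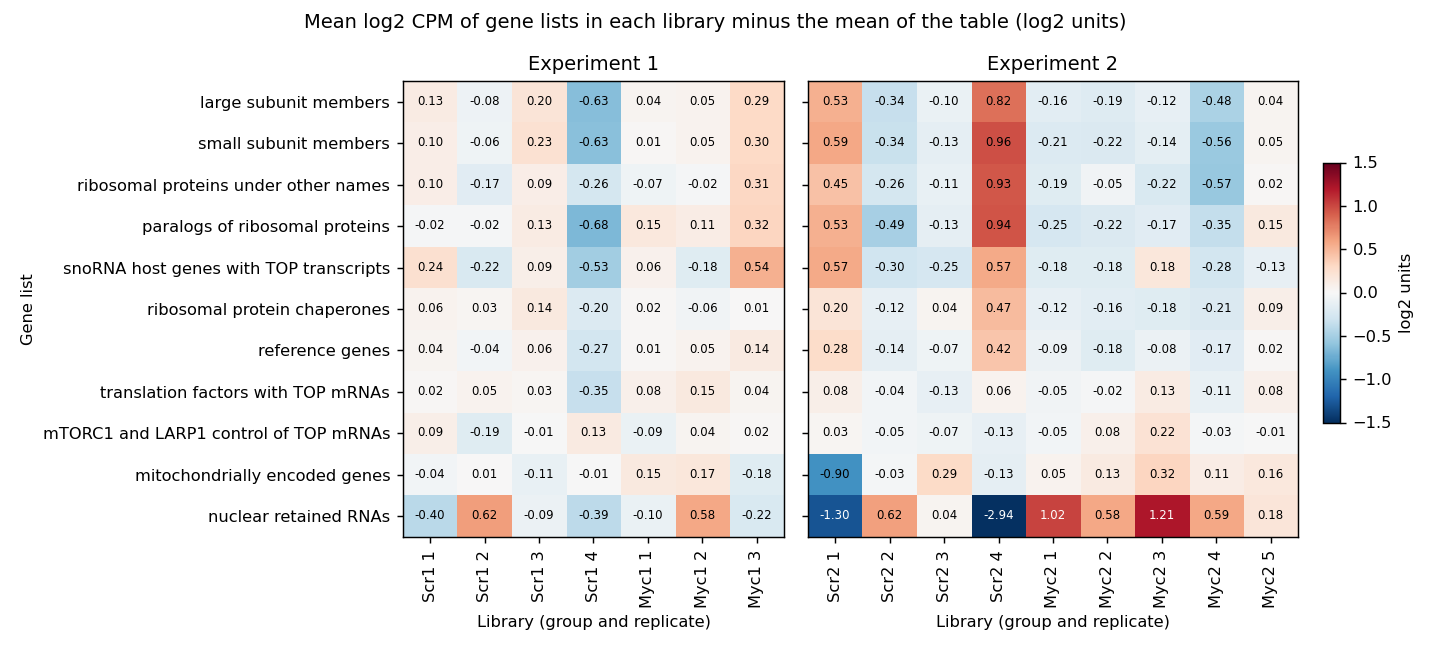
Mean log2 CPM of each gene list in each library minus its mean over the table (colour and printed values, log2 units). Scr2 replicates 1 and 4 are above the mean for both subunits, at 0.53 and 0.82 for the large one, and below it for the nuclear retained RNAs, at -1.30 and -2.94; Scr1 replicate 4 is at -0.63 for both subunits and at -0.39 for the nuclear retained RNAs.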

How the data were processed

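Expression was measured by RNA sequencing in 16 libraries. Per the submitters' processing notes, bcl2fastq 2.20.0, STAR 2.6.0b and Picard were used, with the builds hg19 and mm10. For counting and annotation no tool was named in the labels. Each experiment has 1 table of log2 values, as the authors deposited them. Taken back from log2 they sum to 995054 to 998392 per library and share one distribution, so they were read as log2 CPM, quantile-normalized within each table. Comparisons were therefore made only within a table. The design had allowed for log2(value + 1), which was not needed and became an alternative.

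Limma 3.58.1 in R 4.3.3 (trend and robust) was fitted to all genes with at least 1 CPM in 3 (first), 4 (second) or 3 (joint fit) libraries. P-values were adjusted by Benjamini-Hochberg with a threshold of 0.05, and MYC was also tested by exact permutation. The fit was tested on simulated data. P-values measure the spread between mice. The genes and lists were chosen with earlier results of these data known, and the lists were written from memory.

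Genes named were, in each experiment, the 6 members with the smallest p, the 3 with the most positive and the 3 with the most negative difference, the 3 highest and 3 lowest per coding length, the 3 with the smallest p for the difference of the effects, the paralogs, 2 genes of each list, and MYC. Other members named in a count of 5 or fewer were chosen after their values were seen. Coding lengths came from GENCODE and promoter sequences from RefSeq. Alternatives were pseudocounts of 0.1 and 1, no filter, plain limma, rescaled libraries and libraries left out. The counts above or below 0 under the alternatives, the alternatives for the difference of effects and the list medians without single libraries were added after seeing the data. Results for a few genes are not reported here.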

Additional observations from a re-analysis of the deposited data

Results flagged for a closer look

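Levels of 17 named ribosomal protein genes and of MYC, and the mean and the share of CPM of the ribosomal protein genes, were examined in Scr1, Myc2 and Scr2 for single tumours far from their group, by Dixon's test. Of the 60 groups examined, 5 held such a tumour. Chance alone gives about 5% of independent groups. These genes share their libraries, moved together and were named partly for their values, so that rate does not apply to them. In Scr1, RPL31 had its lowest tumour at 6.79 log2 CPM and RPL9 at 8.53, and in both the tumour is replicate 4. Also in Scr1, RPL39L had its highest tumour at 5.53 log2 CPM, replicate 1. In Myc2, RPL37 had its lowest tumour at 8.38 log2 CPM, replicate 4, and RPL41 its highest at 11.66, replicate 5.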

How the results depend on the processing

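Of 39 differences of named genes, 30 kept their direction under every alternative run and 0 passed the adjusted threshold under any. Without both Scr2 replicate 1 and Scr2 replicate 4, 1 ribosomal protein gene had an unadjusted p under 0.05 in siRNA 2 and 1 in the difference of effects. Over all genes, 509 of 14639 and 220 of 15072 had it, and 2 were called in siRNA 2. With 1 library, or both of these, left out, the siRNA 2 median ranged from -0.62 to 0.0583 and the genes below 0 from 28 to 81. The ranges of single genes were -1.14 to 0.090 for RPL39L, -0.76 to 0.0064 for RPL23A, -0.83 to 0.058 for RPL39, -0.65 to 0.088 for RPL11, -0.35 to 0.025 for RPL5, -0.74 to 0.11 for FAU and -0.62 to 0.017 for SNHG16, with the upper end without both and the lower without Scr2 replicate 2. RPL23 ranged from -0.36 to 0.10 and RPL36 from -0.33 to 0.15 with 1 library left out, and without both they were at 0.40 and 0.40. Rescaling by the reference genes left 8 genes at an unadjusted p under 0.05 in siRNA 2 (1876 of all 14208) and reversed RPL23 (0.10) and RPL36 (0.12). Limma with no trend and not robust left 7 in the difference of effects (1158 of all 14891). The cause was not tested.

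With 1 library left out, the ribosomal protein genes at that p ranged from 0 to 6 in siRNA 1 (6 without Scr1 replicate 3, 2 without Scr1 replicate 1). Over all genes, 955 of 13794 were at that p without Scr1 replicate 3 and 434 of 13775 without Scr1 replicate 1. In siRNA 2 the ribosomal protein genes at that p ranged from 4 to 47. They were 47 without Scr2 replicate 2, 27 without Scr2 replicate 3 and 9 without Myc2 replicate 2 or 3. They were 6 without Myc2 replicate 4, 5 without Scr2 replicate 4 and 4 without Scr2 replicate 1. Over all genes, 3928 of 14422 were at that p without Scr2 replicate 2 and 2787 of 14416 without Scr2 replicate 3. The count was 906 of 14386 without Scr2 replicate 1 and 719 of 14389 without Scr2 replicate 4. It was 1011 of 14076, 1885 of 14101 and 1360 of 14093 without Myc2 replicates 2, 3 and 4. In the difference of effects the ribosomal protein genes at that p ranged from 2 to 54. They were 54 without Scr2 replicate 2, 31 without Scr2 replicate 3 and 20 without Scr1 replicate 3. They were 5 without Myc2 replicate 4, 4 without Myc1 replicate 3, 3 without Scr2 replicate 1 or 4 and 2 without Scr1 replicate 4. Over all genes, the count was 2937 of 14838, 1982 of 14853 and 1581 of 14834 in the first 3 of these settings. It was 1032 of 14836 without Myc2 replicate 4 and 640 of 15202 without Myc1 replicate 3. Without Scr2 replicate 1, Scr2 replicate 4 and Scr1 replicate 4 it was 614 of 14812, 583 of 14786 and 705 of 14842. All genes called ranged from 0 to 2 in siRNA 1 (2 without Myc1 replicate 1 or 2, 1 without Scr1 replicate 2), from 0 to 9 in siRNA 2 (9 without Myc2 replicate 3, 2 without Scr2 replicate 3, 1 without Scr2 replicate 2) and from 0 to 0 in the difference. No paired analysis was possible because the labels give mouse numbers and no replicate numbers. Summing values of a repeated symbol was not run, since no symbol was repeated. Library sizes are unknown, and Scr1 replicate 3 and Scr2 replicate 4 had the fewest distinct low values.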
